A study of Rattus norvegicus with 9 samples.

Results

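The genes described here are Acat1, Acat2, Hmgcs1, Oxct1, Bdh1, Soat1, and Soat2, which form or consume acetoacetyl-CoA and ketone bodies or esterify sterols. They were taken by symbol, 7 of the 35362 genes in the table of read counts. The cells were ASCs, the mesenchymal stem cells grown from the stromal fraction of fat. They were taken from Sprague Dawley males at an age of 6 weeks, and RNA was taken at passage 3. No treatment of the cells is described. SASCs came from subcutaneous fat of the groin, PASCs from perirenal fat, and EASCs from epididymal fat, with 3 samples in each group. The rats were starved before the fat was taken. The cells were released from fat with collagenase and expanded in high-glucose medium with fetal bovine serum, and no sorting step is described. The replicates were wells of a culture plate, and the sources used here do not say whether they came from separate rats, so the p-values measure the spread between these samples, which may be technical.

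Acetoacetyl-CoA stands where several routes of lipid metabolism meet. In the cytosol, the thiolase encoded by Acat2 joins a pair of acetyl-CoA molecules into acetoacetyl-CoA, and the HMG-CoA synthase of Hmgcs1 adds another acetyl-CoA, which opens the mevalonate route to cholesterol. Both genes are known targets of SREBP-2, the transcription factor that is activated when cells are short of sterols. In mitochondria, the dehydrogenase of Bdh1 interconverts 3-hydroxybutyrate and acetoacetate, the CoA transferase of Oxct1 (also called SCOT) activates acetoacetate for use as a fuel, and the thiolase of Acat1 splits acetoacetyl-CoA and also ends the breakdown of isoleucine. Soat1 and Soat2 encode enzymes of the endoplasmic reticulum that esterify cholesterol with a fatty acid for storage. The names are easily confused, because the sterol acyltransferases were once called ACAT as well, and RefSeq still lists Acat-1 and Acat-2 as synonyms of Soat1 and Soat2. The rows used for Acat1 and Acat2 carry the gene identifiers of the thiolases, and their values say nothing of cholesterol esterification.

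Total counts were 17591916 to 30299032 per sample, and a gene at 3 counts stood at 0.104 to 0.159 CPM (counts scaled to a fixed library size with TMM factors), a limit that covers counting error only. The share of counts in genes of ribosomal RNA was lowest in SASCs, at 10.4% to 15.5%, against 22.4% to 32.9% for PASCs and 15.9% to 40.3% for EASCs. The markers Thy1, Cd44, Nt5e, Eng, Itgb1, Pdgfra, and Pdgfrb of ASCs were detected in every group, with a summed level of 3784 to 5027 CPM, while Ly6al of the same list of 8 was at 0 in all samples. These markers did not move together, since Pdgfra averaged 1543 CPM in SASCs, 278 in PASCs, and 235 in EASCs, and Itgb1 1046, 1814, and 2951 CPM. The depot of each sample was taken from the labels and was not tested. The summed mesothelial markers, given below, were lower in SASCs than in PASCs and EASCs. Of the 7 genes, 6 had enough counts to be tested, and Soat2 did not. Genes were tested by edgeR's quasi-likelihood test in one model of the 9 samples with Benjamini-Hochberg adjustment over 14770 genes, and a gene was a DEG when it passed at an adjusted p-value of 0.05 and differed by more than a fold of 2.

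Between EASCs and SASCs, 2 of the 6 genes were DEGs, Hmgcs1 and Acat2, both downregulated, where 27.8% of all genes tested were DEGs, 13.6% upregulated and 14.2% downregulated. With no limit on the fold change, 4 of the 6 passed the test, all lower in EASCs, against 69.7% of all genes (35.5% higher and 34.3% lower). Samples of 4 genes did not overlap between these groups, a share that was 72.1% over all genes. Between PASCs and SASCs none of the 6 was a DEG, where 26.9% of all genes were (12.0% upregulated and 14.9% downregulated). At any fold 5 passed the test, 2 higher and 3 lower, against 69.2% of all genes (34.6% in each direction), and the same number did not overlap, against 71.6%. Between EASCs and PASCs, Hmgcs1 and Acat2 were again the DEGs, where the share over all genes was 7.39% (5.19% upregulated and 2.20% downregulated). All 6 passed the test there, 5 lower in EASCs and 1 higher, against 30.7% of all genes (16.1% higher and 14.5% lower), and none overlapped, where 41.2% of all genes did not. Against SASCs, the number of genes that passed the test was within 1 gene of what the shares over all genes give for 6. The median log2 fold change of the 6 genes was -0.45 in EASCs against SASCs, -0.04 in PASCs against SASCs, and -0.42 in EASCs against PASCs, and that of all genes was 0.01, -0.01, and -0.01. The comparisons share samples, so their counts are not independent. In bulk RNA, fewer cells of a type and less RNA per cell cannot be told apart.

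**Figure D1:**
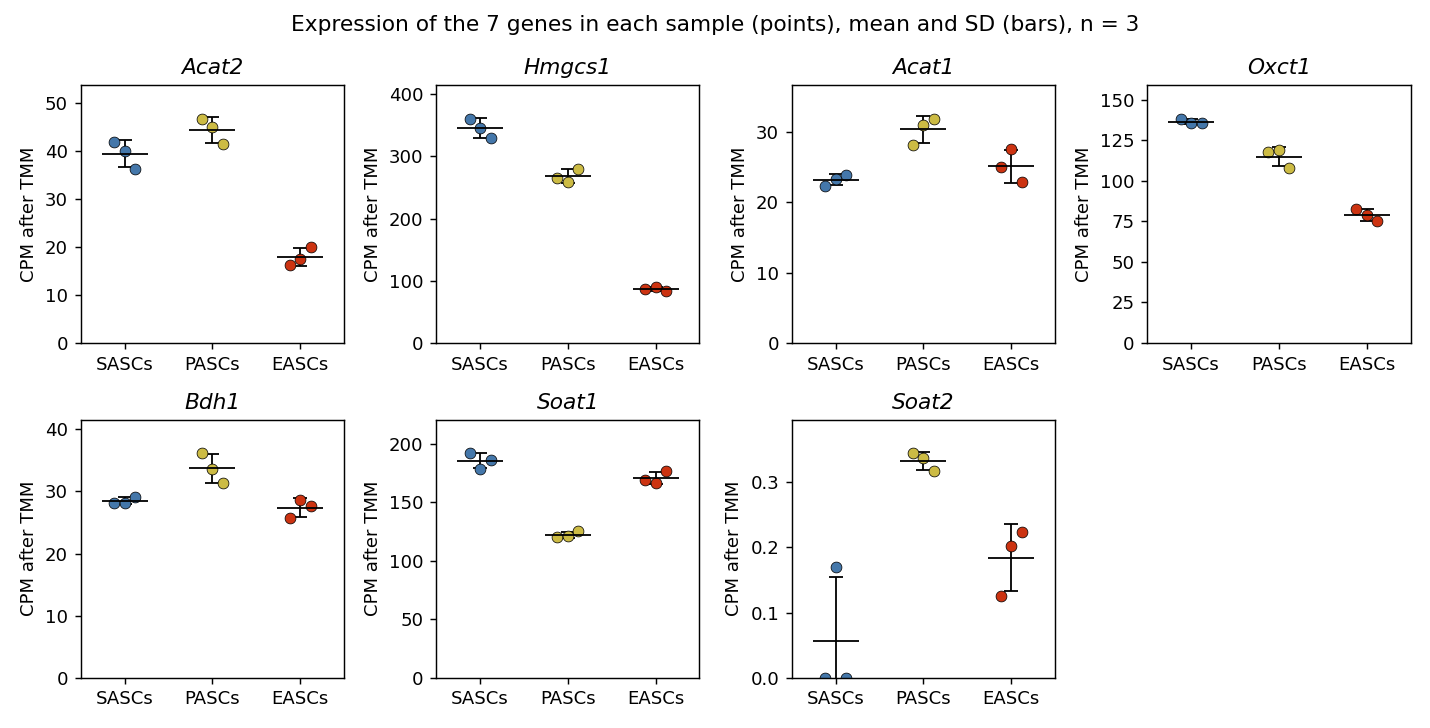
Expression of each gene in CPM after TMM (vertical axis, from 0) in the 3 samples of SASCs, PASCs, and EASCs (points), with the mean and SD (bars). Acat2 and Hmgcs1 were lowest in the 3 EASCs samples, Soat1 was lowest in the 3 PASCs samples, and Soat2 stayed under 0.4 CPM.

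Hmgcs1 had the largest difference of the 6 genes. The SASCs samples had 361, 346, and 329 CPM, those of PASCs 266, 259, and 280 CPM, and those of EASCs 87.1, 90.6, and 84.2 CPM. The groups did not overlap, and the order from SASCs down to EASCs held for every sample. The log2 fold change was -1.98 in EASCs against SASCs (standard error 0.0573, adjusted p = 1.65e-21), a fold of 3.95 lower. PASCs differed less from SASCs, by -0.36 with an adjusted p = 1.34e-06 (standard error 0.0544). The value for EASCs against PASCs was -1.62 with an adjusted p = 2.79e-18 (standard error 0.0570). Hmgcs1 spans 52427351 to 52445082 of chromosome 2, plus strand, in the rn6 build. The deposited row carries a description and a gene identifier other than those of Hmgcs1 in RefSeq (identifier 29637). The row lies between Ccl28 and Nim1k, the protein-coding neighbors of Hmgcs1 in RefSeq, so the counts were read as those of the cytosolic synthase.

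Acat2 was lower in EASCs than in both other groups, and its levels in PASCs and SASCs overlapped. The SASCs samples stood at 41.9, 39.9, and 36.3 CPM, those of PASCs at 46.7, 44.9, and 41.3 CPM, and those of EASCs at 16.2, 17.4, and 19.9 CPM. Every EASCs sample was below every other sample, by a fold of 2.21 against SASCs on average (log2 fold change -1.15, 95% confidence interval -1.32 to -0.97) and of 2.49 against PASCs. In PASCs against SASCs the interval was 0.01 to 0.33 and the adjusted p = 0.0564, and the value of 0.17 became -0.16 without TMM and passed with upper quartile scaling (adjusted p = 0.0456), with only the groups compared, and without SASCs replicate 1, PASCs replicate 3, or EASCs replicate 1 or 3, so Acat2 was not shown to differ or to be alike in these groups. On chromosome 1, Acat2 spans 47972399 to 47992654 of the plus strand. The only row that overlaps it, Vom2r6 on the minus strand, had 0 counts.

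Because Hmgcs1 and Acat2 had the same direction in EASCs, their promoters are shown, from RefSeq in the build GRCr8, 250 bases before to 50 bases after the start of the gene and 5′ to 3′ along the plus strand. A promoter was found there for 6 of the 7 genes, all but Soat2. Capitals mark matches on either strand to CCAAT, the box bound by NF-Y, a common partner of SREBP. The sterol response element in the form TCACNCCAC was also searched on both strands, and no match overlapped another.
Hmgcs1, chr2:53382054-53382353: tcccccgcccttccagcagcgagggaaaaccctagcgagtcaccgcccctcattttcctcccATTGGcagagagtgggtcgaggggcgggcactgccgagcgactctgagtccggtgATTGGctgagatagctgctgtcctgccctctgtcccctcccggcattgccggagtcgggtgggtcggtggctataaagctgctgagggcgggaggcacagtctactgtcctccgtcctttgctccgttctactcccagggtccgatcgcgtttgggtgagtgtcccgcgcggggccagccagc
Acat2, chr1:50100590-50100889: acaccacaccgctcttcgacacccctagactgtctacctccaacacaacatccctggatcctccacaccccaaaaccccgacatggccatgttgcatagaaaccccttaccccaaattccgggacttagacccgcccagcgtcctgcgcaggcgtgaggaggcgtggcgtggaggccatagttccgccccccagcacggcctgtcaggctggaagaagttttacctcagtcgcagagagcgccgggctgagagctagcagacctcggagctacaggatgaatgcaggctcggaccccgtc
The promoter of Hmgcs1 held 2 matches to CCAAT, both on the minus strand, from base -188 to -184 and from -133 to -129 of the start, and that of Acat2 held none. Neither held TCACNCCAC in this window. Of 33469 promoters of the same length, 37.5% held CCAAT and 1.12% held TCACNCCAC. Acat1 with 2 and Soat1 with 1 also had matches to CCAAT, and Oxct1 and Bdh1 had none.

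Downstream of Hmgcs1, a list of 19 genes of the route from HMG-CoA to cholesterol and its branch at Ggps1 was tested in full. In EASCs against SASCs, 11 of the 19 were downregulated DEGs and 0 upregulated, where 14.2% of all genes were downregulated DEGs, and the median log2 fold change was -1.13. In EASCs against PASCs, 13 were downregulated DEGs, against 2.20% of all genes, with a median of -1.04. Fdps, Sqle, and Mvd were among them at -1.01 each, close to the line for a DEG. In PASCs against SASCs, 2 of the 19 were downregulated DEGs, against 14.9% of all genes, with a median of -0.09. Tm7sf2, a sterol reductase, changed the most in both comparisons with SASCs, by a log2 fold change of -3.61 in EASCs and -2.38 in PASCs. Lss, the cyclase that forms lanosterol, followed with -2.34 and -1.01, and with upper quartile scaling, or without SASCs replicate 3 or PASCs replicate 3, only 1 of these 2 genes was a DEG in PASCs. Dhcr7, the reductase of the last step of one branch, came next in EASCs at -1.73. Ggps1, which leads away from sterols to geranylgeranyl diphosphate, had 0.09 in EASCs (adjusted p = 0.428) and was the one member of the list that did not pass the test there.

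**Figure D2:**
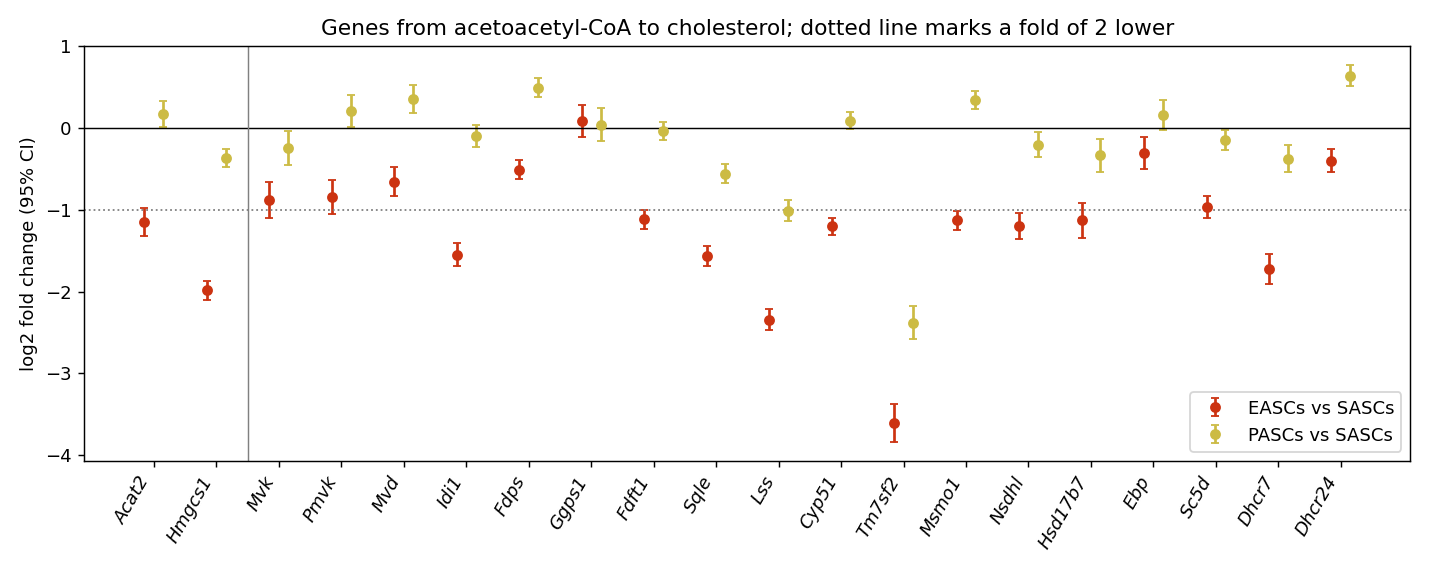
Log2 fold change against SASCs (vertical axis) with its 95% confidence interval for Acat2, Hmgcs1, and 18 of the 19 listed genes that follow HMG-CoA, in EASCs (red) and PASCs (yellow). Values in EASCs lie below 0 for every gene shown but Ggps1, and those in PASCs lie within 1 of 0 apart from Tm7sf2 and Lss.

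Of 7 genes that encode the SREBP factors or their regulators, 2 were downregulated DEGs in EASCs against SASCs, where 14.2% of all genes were. In PASCs 1 was, where 14.9% of all genes were. Insig1, which holds SREBP in the endoplasmic reticulum when sterols are plentiful and is itself a target of it, stood at -3.22 in EASCs and -1.47 in PASCs on the log2 scale. Srebf1, which encodes SREBP-1, was at -1.22 in EASCs. Srebf2, the gene of SREBP-2, fell by 0.71 on the log2 scale in EASCs (adjusted p = 4.01e-11), short of a DEG with TMM. Total counts without TMM moved the median of all genes in EASCs against SASCs to -0.39. These transcript levels do not measure the activity of the factors.

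Oxct1 was lower in EASCs than in SASCs, with PASCs between them. The SASCs samples had 138, 135, and 136 CPM, the PASCs samples 117, 119, and 108 CPM, and the EASCs samples 82.8, 78.8, and 75.4 CPM. The 3 groups did not overlap. The log2 fold change was -0.79 in EASCs against SASCs (standard error 0.0567, adjusted p = 1.34e-12), a fold of 1.73 lower and short of a DEG, but with total counts in place of TMM it was -1.18 (adjusted p = 4.23e-12), past the line for a DEG. For PASCs it was -0.25 with an adjusted p = 3.22e-04, and EASCs were also below PASCs, at -0.54 with an adjusted p = 1.62e-08. Oxct1 spans 53859738 to 54007733 of chromosome 2, plus strand, 1.41 Mb beyond the end of Hmgcs1.

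Bdh1 and Acat1, the other mitochondrial genes, were highest in PASCs. For Bdh1 the SASCs samples stood at 28.2, 28.2, and 29.2 CPM, those of PASCs at 36.2, 33.6, and 31.3 CPM, and those of EASCs at 25.7, 28.7, and 27.7 CPM. The PASCs samples lay above all others, and those of SASCs and EASCs overlapped. Relative to SASCs, the log2 fold change of Bdh1 was 0.24 for PASCs with an adjusted p = 0.00578, which became -0.08 when total counts were used without TMM, a scaling that moved the median of all genes to -0.33. In EASCs against SASCs it was -0.06 (95% confidence interval -0.22 to 0.10, adjusted p = 0.498), and in EASCs against PASCs -0.30 with an adjusted p = 0.00273. Both calls changed without TMM, to -0.45 (adjusted p = 0.0137) and -0.37 (adjusted p = 0.140). Bdh1 spans 72577547 to 72619429 of chromosome 11, minus strand, within the span of Pigzl1 on the same strand, whose 233 counts in all samples compare with 6450 of Bdh1.

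For Acat1 the SASCs samples had 22.4, 23.3, and 23.9 CPM, the PASCs samples 28.2, 31.0, and 31.9 CPM, and the EASCs samples 25.0, 27.6, and 22.9 CPM. Only the PASCs samples stood clear of the others. PASCs were above SASCs by 0.39 on the log2 scale (adjusted p = 1.86e-04, standard error 0.0830), and by 0.06 without TMM, which did not pass (adjusted p = 0.768). In EASCs against SASCs it was 0.12 (95% confidence interval -0.05 to 0.29, adjusted p = 0.215) and became -0.26 without TMM. EASCs were below PASCs, at -0.27 with an adjusted p = 0.0137. The last difference did not pass without PASCs replicate 2 (adjusted p = 0.0555), PASCs replicate 3 (adjusted p = 0.0618), or EASCs replicate 3 (adjusted p = 0.100), nor without TMM (-0.33, adjusted p = 0.219). Acat1 spans 58166990 to 58195884 of chromosome 8, minus strand, with no other row over it.

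**Figure D3:**
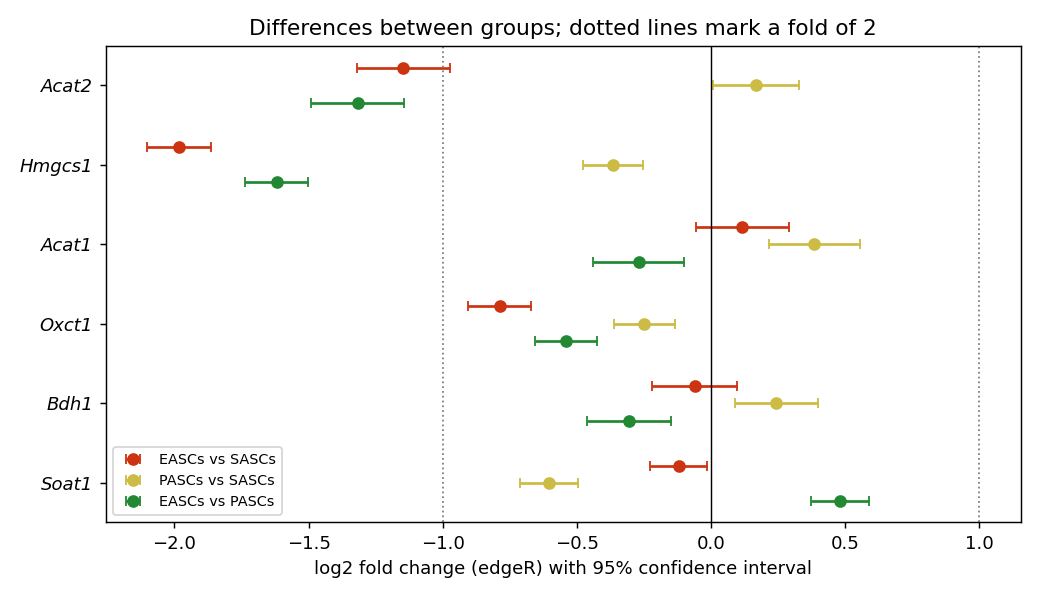
Log2 fold change by edgeR (horizontal axis) with its 95% confidence interval for the 6 tested genes in the 3 comparisons, with a fold of 2 marked by dotted lines. Only Hmgcs1 and Acat2 pass the line at a fold of 2, from -1.15 to -1.98 in EASCs, and Soat1 is the one gene higher in EASCs than in PASCs.

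Among other genes of ketone bodies in a list of 11, of which 10 were in the table and 8 were tested, 1 was an upregulated and 2 were downregulated DEGs in EASCs against SASCs, and the same numbers were found in PASCs. Over all genes the shares were 13.6% and 14.2% in EASCs and 12.0% and 14.9% in PASCs, so 3 DEGs of 8 differ by less than 1 gene from the share of all genes. Without TMM, 4 were downregulated in EASCs, and the downregulated DEGs among all genes rose as well, from 2103 to 3426. The monocarboxylate transporters differed in direction. Slc16a1, which encodes MCT1, averaged 136 ± 8.43 CPM in SASCs against 61.7 ± 2.32 in EASCs (SD, n = 3 each), with a log2 fold change of -1.14, whereas Slc16a3, which encodes the lactate exporter MCT4, rose by 2.65 in EASCs and by 2.95 in PASCs. Slc16a6 fell by 1.17 on the log2 scale in PASCs. Bdh2, once named for a ketone body dehydrogenase, fell by 2.71 in EASCs and by 2.64 in PASCs, from 15.6 ± 1.08 CPM in SASCs (SD, n = 3).

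Of 7 further genes of acetoacetyl-CoA, thiolases and a synthetase, 6 were tested and 1 was a DEG in EASCs against SASCs, with 0 in the other comparisons, where 27.8%, 26.9%, and 7.39% of all genes were DEGs. Without TMM, 3 were downregulated in EASCs, where the number over all genes rose from 2103 to 3426, and 1 in PASCs, where it rose from 2200 to 3169. The DEG of EASCs against SASCs with TMM was Aacs, the cytosolic acetoacetyl-CoA synthetase that feeds ketone carbon into lipid synthesis, which averaged 65.0 ± 2.93 CPM in SASCs, against 55.4 ± 3.84 for PASCs and 30.6 ± 1.62 for EASCs (SD, n = 3 each). The change in EASCs was -1.09 on the log2 scale with an adjusted p = 8.54e-14. In the breakdown of leucine and isoleucine, which supplies the substrate of Acat1, 13 of 14 genes were tested, and the DEGs in both comparisons with SASCs were Bcat1 and Acadsb, where 27.8% and 26.9% of all genes were DEGs. Without TMM, 2 were downregulated in EASCs, with the same rise over all genes. Bcat1, a cytosolic transaminase, rose by 1.65 in EASCs and 1.69 in PASCs on the log2 scale, and Acadsb, the dehydrogenase of the isoleucine branch, fell by 1.63 and 1.40. Echs1, a hydratase used by most cells, had 1 count in the whole table, so a value near 0 there need not mean that a transcript is absent.

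Soat1 showed another order, with PASCs lowest. The SASCs samples had 192, 179, and 186 CPM, the PASCs samples 120, 121, and 125 CPM, and the EASCs samples 169, 166, and 177 CPM. Samples of the 3 groups did not overlap, though the highest of EASCs and the lowest of SASCs were close. PASCs fell by 0.60 on the log2 scale relative to SASCs (adjusted p = 7.35e-11, standard error 0.0525), and EASCs were 0.48 above PASCs (adjusted p = 2.97e-08, standard error 0.0526), a call that was lost without TMM (0.41, adjusted p = 0.0726). In EASCs against SASCs it was -0.12 (95% confidence interval -0.23 to -0.01, adjusted p = 0.0428), a call that was lost with upper quartile scaling (adjusted p = 0.162), with no filter on low counts (adjusted p = 0.0893), with rRNA genes removed (adjusted p = 0.0543), and without SASCs replicate 1 or 3, PASCs replicate 2, or EASCs replicate 1 or 2 (adjusted p = 0.0608 to 0.173). It held with DESeq2 (adjusted p = 0.0115) and was -0.52 without TMM (adjusted p = 0.00292). Soat1 spans 74032622 to 74077759 of chromosome 13, minus strand, where LOC103691961 on the other strand had 14 counts in all.

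Soat2, which is expressed mainly in liver and intestine, was near the limit of detection. It had 0, 4, and 0 counts in the SASCs samples, 9, 9, and 6 in PASCs, and 3, 5, and 5 in EASCs. PASCs samples, at 0.318 to 0.344 CPM, were above all others, and one SASCs sample lay within the range of EASCs. The levels differed over the 3 groups (exact permutation test, p = 0.00714 over 9 samples), but they rest on 41 counts in all. Without the filter on low counts, edgeR gave an adjusted p = 0.0499 for PASCs against SASCs (log2 fold change 2.48, which depends on the prior count) and 0.251 for EASCs against SASCs. Soat2 spans 143754892 to 143767989 of chromosome 7, plus strand. Markers of hepatocytes and enterocytes, 8 genes, summed to at most 0.486 CPM in any sample, with Alb and Fabp1 at 0 throughout.

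Among 7 genes of the hydrolysis of cholesteryl esters, their formation in plasma, and lipid droplets, 6 were tested, and 1 was an upregulated and 2 were downregulated DEGs in EASCs against SASCs, where 13.6% and 14.2% of all genes were. Nceh1, a hydrolase of cholesteryl esters, averaged 9.39 ± 1.43 CPM in SASCs against 18.9 ± 1.07 in EASCs (SD, n = 3 each), and its log2 fold change of 1.02 was under the line for a DEG with DESeq2, without TMM, and without SASCs replicate 1, SASCs replicate 2, or EASCs replicate 2. Lipe, the hormone-sensitive lipase, fell by 2.04 in EASCs and 1.52 in PASCs, and Lcat, the plasma enzyme that esterifies cholesterol, by 1.62 and 1.65.

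Compared per length, as RPKM (CPM per kilobase of the listed gene length), the order of the 7 genes differed between groups. Hmgcs1 was highest in SASCs, at 98.7 ± 4.52 RPKM, followed by Oxct1 (41.2 ± 0.490), Soat1 (38.4 ± 1.36), Acat2 (23.5 ± 1.70), Acat1 (10.6 ± 0.362), Bdh1 (8.87 ± 0.180), and Soat2 (SD, n = 3 each), and no neighbors in that order overlapped. In PASCs, Hmgcs1 at 76.7 ± 3.09 RPKM and Oxct1 at 34.7 ± 1.80 RPKM led, and the next genes, Acat2 and Soat1, overlapped. In EASCs, Soat1 was highest at 35.4 ± 1.08 RPKM, and Hmgcs1 at 25.0 ± 0.922 RPKM overlapped Oxct1 at 23.9 ± 1.12 RPKM. There Acat1 at 11.5 ± 1.08 RPKM overlapped Acat2 at 10.7 ± 1.14 RPKM (SD, n = 3 each).

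Ratios of counts within a sample do not depend on how samples are scaled, and 5 ratios were compared over the 3 groups by an exact permutation test of the F statistic, with p-values adjusted over the 5. The smallest p-value that 3 groups of 3 samples allow is 0.00357. The ratio of Acat2 to Acat1, the cytosolic to the mitochondrial thiolase, was 1.87, 1.71, and 1.52 in the SASCs samples, 1.66, 1.45, and 1.30 in PASCs, and 0.648, 0.631, and 0.871 in EASCs. EASCs samples lay below all others (adjusted p = 0.00714, exact permutation test). Whether such a ratio is above or below 1 depends on the gene lengths of 1672 bases for Acat2 and 2186 for Acat1, and per length EASCs replicate 3 had more Acat2 (11.9 RPKM) than Acat1 (10.5 RPKM). The ratio of Hmgcs1 to Acat2, consecutive steps of 1 route, was 8.79 in SASCs, 6.09 in PASCs, and 4.94 in EASCs on average, without overlap between groups (adjusted p = 0.00446, exact permutation test), so Hmgcs1 and Acat2 did not change by equal amounts.

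The ratio of Soat1 to Acat2 had the widest range, with means of 4.73 in SASCs, 2.77 in PASCs, and 9.64 in EASCs (adjusted p = 0.00446, exact permutation test). Samples of EASCs lay at 8.87 to 10.5 and those of PASCs at 2.57 to 3.03. The ratio of Bdh1 to Oxct1, consecutive steps in the use of 3-hydroxybutyrate, was 0.209 in SASCs, 0.294 in PASCs, and 0.347 in EASCs, and that of Oxct1 to Acat1, the step that follows, was 5.88, 3.80, and 3.16 (adjusted p = 0.00446 each, exact permutation test). For these 3 ratios, too, no samples of different groups overlapped. For Bdh1 to Oxct1 the highest PASCs sample, 0.308, and the lowest of EASCs, 0.310, were close. For Oxct1 to Acat1 the lowest PASCs sample, 3.39, and the highest of EASCs, 3.32, were close as well. How often ratios of other pairs of genes separate the groups was not tested.

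**Figure D4:**
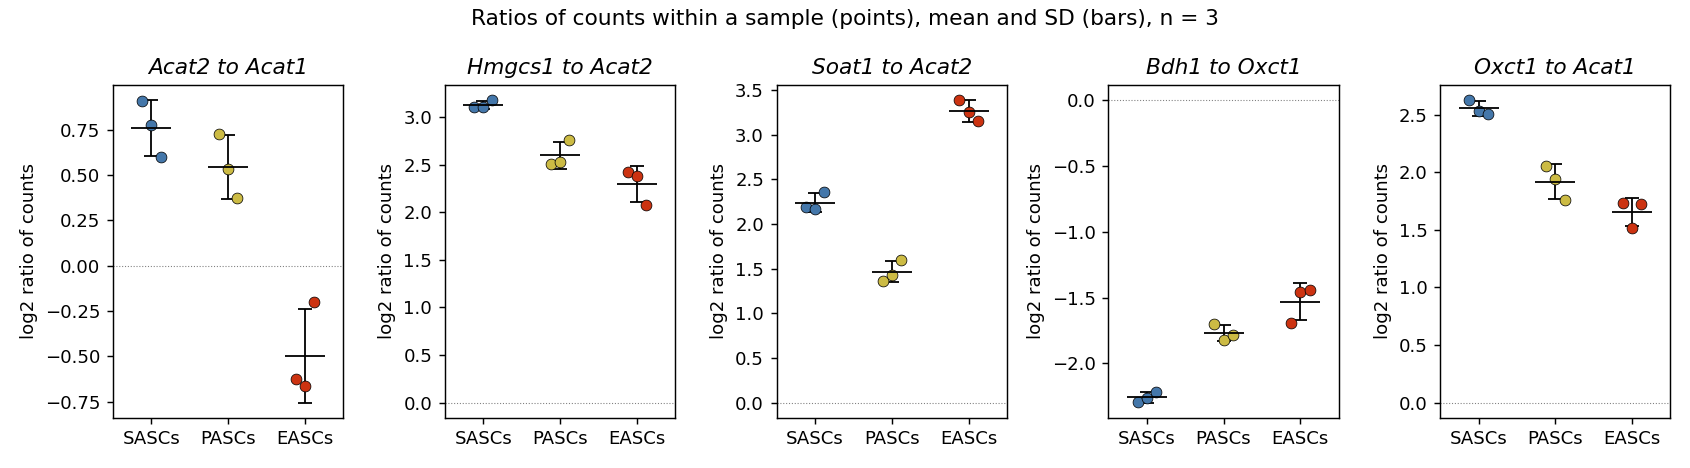
Log2 ratio of the counts of 2 genes within a sample (vertical axis) for 5 pairs of genes in the 3 samples of each group (points), with the mean and SD (bars). The log2 ratio of Acat2 to Acat1, not corrected for length, is lowest in the 3 EASCs samples, and that of Soat1 to Acat2 is lowest in PASCs and highest in EASCs.

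The 3 tested genes most like each gene were found by the root-mean-square difference of log2 CPM over the 9 samples, each gene centered on its own mean. For Acat2 they were Cyp51 (0.098), Fdft1 (0.13), and Olfml3 (0.14), where Acat2 itself varied by 0.59, and the first 2 encode a demethylase and the synthase of squalene in sterol synthesis. For Hmgcs1 they were Col27a1 (0.12), Scd (0.13), and Kitlg (0.14), with 0.86 for Hmgcs1 itself, and Scd encodes a fatty acid desaturase. The nearest gene was Frmd6 (0.056) for Soat1, Rps6ka5 (0.066) for Oxct1, Pip4k2a (0.058) for Acat1, and Rabl6 (0.040) for Bdh1, and these genes themselves varied by 0.14 for Bdh1 to 0.33 for Oxct1.

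Markers of other cells differed between the same groups. The summed level of 9 macrophage and leukocyte markers ranged over 45.7 to 49.1 CPM for SASCs, 74.4 to 76.4 for PASCs, and 130.6 to 131.6 for EASCs, and 8 of the 9 were upregulated DEGs in EASCs and 4 in PASCs against SASCs, where 13.6% and 12.0% of all genes were. The sum of 8 mesothelial markers ranged over 20.0 to 21.4 CPM for SASCs, 98.3 to 105.6 for PASCs, and 131.6 to 142.9 for EASCs. The 6 adipocyte markers summed to 87.1 to 95.9 CPM for SASCs, 19.2 to 20.2 for PASCs, and 9.40 to 10.1 for EASCs. Adipoq, Plin1, Cidec, and Fabp4 were downregulated DEGs in EASCs and PASCs against SASCs, where 14.2% and 14.9% of all genes were. The others of that list were too low to be tested. Lep averaged 0.051, 0.075, and 0.200 CPM and Pck1 0.028, 0.037, and 0.054 CPM in SASCs, PASCs, and EASCs. The 5 endothelial markers summed to 49.8 to 51.9 CPM for SASCs, 6.14 to 7.84 for PASCs, and 28.8 to 30.8 for EASCs. In that last list PASCs were lowest, as they were for Soat1, and the sums of the adipocyte markers had the order of Hmgcs1 and Oxct1. The part of these cells, and of the share of ribosomal RNA, in the differences of the 7 genes was not tested.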

How the data were processed

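Per the methods, the authors trimmed paired-end reads of 150 bases with cutadapt and FastX-Toolkit and aligned them to rn6 with TopHat. They deposited raw counts per gene and sample, with a gene length in bases. The submitters' processing notes name rn5, but the positions and scaffold names in the table are those of rn6. The counting tool and its use of strand are not given in the sources used here. The methods give 6 replicates per group, of which 3 were analysed here.

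The counts were tested with edgeR 4.0.16 (R 4.3.3) after TMM scaling and filterByExpr, and CPM and RPKM were computed from them. Ratios were tested over all arrangements of the samples. Reads of ribosomal RNA enter total counts again, since Rn45s equals Rn18s and Rn28s together within a factor of 1.0004 to 1.0011. The spread within each group exceeded counting noise (chi-square per degree of freedom of 6.15 or more). The scripts were tested on simulated data. The genes and lists were chosen with earlier results of these data known. Named were the 7 genes, at most 3 DEGs of each list with the largest change in each comparison with SASCs, and the 3 nearest patterns, and other named genes were chosen after their values were seen. Alternatives were DESeq2 1.42.0, other scalings, no filter, fewer groups, the replicate number as a factor, removal of 7 rRNA genes, and leaving out each replicate. Some genes of the lists are not reported here.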

Additional observations from a re-analysis of the deposited data

How the results depend on the processing

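Hmgcs1, Acat2, and Oxct1 in EASCs against SASCs and against PASCs, and Hmgcs1, Oxct1, and Soat1 in PASCs against SASCs, kept their direction and stayed past an adjusted p-value of 0.05 under every alternative run, while Oxct1 in EASCs against SASCs passed the line of a fold of 2 without TMM (-1.18). Total counts without TMM moved the median log2 fold change of all genes to -0.39 in EASCs and -0.33 in PASCs against SASCs, and the share of DEGs that were higher from 48.8% to 28.3% and from 44.7% to 28.5%. Under it the log2 fold changes were -0.26 for Acat1 and -0.45 for Bdh1 in EASCs against SASCs, 0.063 for Acat1, -0.16 for Acat2, and -0.084 for Bdh1 in PASCs against SASCs, and -0.33 for Acat1, 0.41 for Soat1, and -0.37 for Bdh1 in EASCs against PASCs, of which -0.45 passed the test. Soat1 in EASCs against SASCs was -0.52.

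Soat1 in EASCs against SASCs was -0.082 with upper quartile scaling, -0.12 without the filter, and -0.11 without rRNA genes, and -0.15 to -0.095 with a replicate left out, where it did not pass without SASCs replicate 1 or 3, PASCs replicate 2, or EASCs replicate 1 or 2 (adjusted p = 0.0608 to 0.173). Acat2 in PASCs against SASCs passed with upper quartile scaling (0.18) and with only the groups compared (0.17), and it was 0.12 to 0.22 with a replicate left out, passing without SASCs replicate 1, PASCs replicate 3, or EASCs replicate 1 or 3. Acat1 in EASCs against PASCs was -0.34 to -0.20 with a replicate left out. The causes were not tested. DEGs numbered 4105, 3979, and 1091 in the 3 comparisons, and within 1.5 times of this under every alternative.

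Deviations of samples with the same number had correlations of -0.03 to 0.04 across genes, so the numbers are not taken to pair the samples. With the replicate block, EASCs against SASCs gave -1.98 for Hmgcs1 and -1.14 for Acat2 on the log2 scale, and no call of the 6 genes changed. The 5 ratios had an adjusted p = 0.0278 (exact permutation test within replicate numbers), the smallest value which that test allows. Soat2, at 0 to 9 counts, is limited by depth.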

Other observations

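Among 9 relatives of Soat1 and Soat2 in the family of membrane-bound O-acyltransferases, 6 were tested. In EASCs against SASCs 3 were upregulated DEGs and 1 was a downregulated DEG, where 13.6% and 14.2% of all genes were, and in PASCs against SASCs 2 were upregulated, where 12.0% of all genes were. Mboat1, which acts on lysophospholipids, averaged 6.57 ± 1.20 CPM in SASCs against 18.2 ± 1.32 for PASCs and 20.3 ± 2.08 for EASCs (SD, n = 3 each), and rose by 1.62 in EASCs and 1.46 in PASCs on the log2 scale. Porcn, the acyltransferase that lipidates Wnt proteins, was at 13.6 ± 0.401, 17.0 ± 0.308, and 35.8 ± 0.257 CPM in SASCs, PASCs, and EASCs (SD, n = 3 each), and 1.07 higher in EASCs than in PASCs on the log2 scale. Hhat, which palmitoylates Hedgehog proteins, rose by 1.37 in EASCs and by 1.76 in PASCs from 0.999 ± 0.573 CPM in SASCs (SD, n = 3). Lpcat3, a phospholipid acyltransferase, had -1.02 in EASCs, which was under the line for a DEG with upper quartile scaling and without SASCs replicate 2. Dgat1, the enzyme of triglyceride synthesis closest in kind to the sterol acyltransferases, averaged 29.3 ± 1.03 CPM in SASCs against 33.5 ± 3.29 for PASCs and 33.2 ± 4.92 for EASCs (SD, n = 3 each) and did not pass the test in any comparison.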
